A study of Mus musculus with 12 samples.

Results

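The proteasome subunit genes were taken as all genes with a symbol made of Psm, a letter from a to e and a digit, and each was read on the probe set with the highest mean over the 12 arrays. This gave 44 of the 18194 genes measured on the Affymetrix mouse arrays, and no filter on low values was applied. Of the 44 members, 42 encode subunits, activators or assembly chaperones of the proteasome, and the other 2, Psmc3ip and Psme3ip1, match by symbol only. The arrays measured liver RNA of male mice of the 129J background, 3 per group. The group KO 24 months tumor comprised hepatic tumors of 24-month-old Iqgap2-/- mice, and KO 6 months comprised normal liver of 6-month-old Iqgap2-/- mice. WT 24 months and WT 6 months comprised normal liver of wild-type mice of those ages. The deletion was carried in the whole animal and not in hepatocytes alone.

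The labels of 2 of the 4 groups go against the deleted gene. Iqgap2, a scaffold protein of liver, had a mean log2 intensity of 12.12 ± 0.06 on arrays with the label KO 24 months tumor and 8.29 ± 0.34 on those of KO 6 months (SD, n = 3 each). Under the labels WT 24 months and WT 6 months the means were 12.17 ± 0.21 and 8.32 ± 0.07 (SD, n = 3 each). The labels KO 24 months tumor and WT 6 months would have to be exchanged for Iqgap2 to match the genotypes. The groups are therefore named by their labels throughout, and every direction holds for the arrays so labelled. An exchange leaves the same 4 pairs of groups to compare, under other names. It leaves the value of the interaction of genotype and age as it is, but not the 2 changes with age within it. The 6 arrays labelled KO would then be those of 6 months of both genotypes, and the 6 labelled WT those of 24 months. A separation of the arrays labelled KO from those labelled WT would thus be one by age and not by genotype. The array medians lay between 5.41 and 5.45, and array pairs correlated at 0.9604 to 0.9941. The 8 hepatocyte markers averaged 14.02 to 14.36 in the arrays of KO 24 months tumor, KO 6 months and WT 24 months and 13.34 to 13.88 in those of WT 6 months. The urea cycle enzyme Cps1 read 14.11 to 14.43 in the 9 others and 11.49, 12.45 and 10.10 in WT 6 months. The other markers were not all low there. Serpina1c (14.34) and Tat (12.64) had their lowest group means in WT 6 months. Alb, Ttr and Hnf4a averaged 15.05, 14.97 and 12.77 there, against 15.09 to 15.16, 14.99 to 15.01 and 12.76 to 13.10 in the other groups. Apoa1 was highest there (15.13), and Apob (12.77) lay above KO 24 months tumor (11.85) and KO 6 months (11.74). The part of this in the members' differences was not tested.

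The proteasome is the protease that degrades ubiquitin-tagged proteins. Its 20S core consists of alpha rings, which gate the channel, around beta rings, which hold the catalytic subunits. The 19S regulatory particle recognizes, unfolds and deubiquitinates substrates by its ATPase and non-ATPase subunits. After interferon-gamma the immunoproteasome subunits Psmb8, Psmb9 and Psmb10 take the places of the constitutive catalytic subunits Psmb5, Psmb6 and Psmb7, and the PA28 activator encoded by Psme1 and Psme2 caps the core. This supplies peptides for MHC class I presentation. The transcription factors NRF1 (Nfe2l1) and NRF2 (Nfe2l2) can induce constitutive subunits through antioxidant response elements.

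The promoter windows of 5 genes are shown because the results turn on the interferon-responsive subunits and on the constitutive subunits that they replace. Each window covers 250 bases before and 50 bases after the annotated start in RefSeq (GRCm38.p6) and is written 5′ to 3′ on the strand of the gene. In Psme1 capitals mark the core of the interferon-stimulated response element, which is GAAA, any 2 bases and GAAA again and lies here on the opposite strand. In Psmb5 and Psmb6 they mark TGACNNNGC, the core of the antioxidant response element. Psmb8 and Psmb9 held no match to either motif.
Psmb8 promoter, chr17:34197945-34198244, plus strand: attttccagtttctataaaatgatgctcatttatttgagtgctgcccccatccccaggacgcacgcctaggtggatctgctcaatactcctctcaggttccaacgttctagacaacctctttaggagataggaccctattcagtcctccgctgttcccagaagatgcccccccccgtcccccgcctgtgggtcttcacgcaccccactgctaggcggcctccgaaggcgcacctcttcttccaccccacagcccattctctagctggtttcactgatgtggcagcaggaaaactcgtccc
Psmb9 promoter, chr17:34187281-34187580, minus strand: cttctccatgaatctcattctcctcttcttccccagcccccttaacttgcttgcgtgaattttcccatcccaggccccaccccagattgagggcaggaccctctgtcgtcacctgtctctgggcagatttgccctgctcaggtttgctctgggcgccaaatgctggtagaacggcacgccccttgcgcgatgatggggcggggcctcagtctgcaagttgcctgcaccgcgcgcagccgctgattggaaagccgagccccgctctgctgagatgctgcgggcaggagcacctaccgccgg
Psme1 promoter, chr14:55578244-55578543, plus strand: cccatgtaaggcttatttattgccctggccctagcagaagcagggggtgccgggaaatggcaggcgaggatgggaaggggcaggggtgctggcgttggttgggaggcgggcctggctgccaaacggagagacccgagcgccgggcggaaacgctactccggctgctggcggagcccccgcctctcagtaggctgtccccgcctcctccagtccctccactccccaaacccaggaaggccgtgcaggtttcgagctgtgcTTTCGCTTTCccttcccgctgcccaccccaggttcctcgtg
Psmb5 promoter, chr14:54617946-54618245, minus strand: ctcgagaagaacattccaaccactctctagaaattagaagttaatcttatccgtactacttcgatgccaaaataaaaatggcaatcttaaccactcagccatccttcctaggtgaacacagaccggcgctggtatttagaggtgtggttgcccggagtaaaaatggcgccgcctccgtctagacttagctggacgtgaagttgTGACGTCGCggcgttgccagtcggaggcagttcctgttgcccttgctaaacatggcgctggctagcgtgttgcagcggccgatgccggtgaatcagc
Psmb6 promoter, chr11:70525107-70525406, plus strand: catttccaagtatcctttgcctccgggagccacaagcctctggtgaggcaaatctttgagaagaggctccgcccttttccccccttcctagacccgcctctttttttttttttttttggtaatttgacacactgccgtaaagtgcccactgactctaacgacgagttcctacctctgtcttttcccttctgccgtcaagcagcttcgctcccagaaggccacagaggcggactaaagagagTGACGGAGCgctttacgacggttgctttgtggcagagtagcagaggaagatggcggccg
These matches began at 9 in Psme1, -47 in Psmb5 and -9 in Psmb6, counted from the start site as 0. The windows of Psmb9 and of Tap1, a subunit of the peptide transporter of antigen presentation, overlap by 275 bases read from opposite strands. Of the members, 37 had a window (40 windows in all). TGACNNNGC occurred in 6 of them (Psmb5, Psmb6, Psmc6, Psmd9, Psmd12 and Psme4) and in 12.4% of the 32851 windows of all genes. The interferon-stimulated core occurred in 4 members (Psmb3, Psmd4, Psmd9 and Psme1) and in 3.44% of all windows. Both strands were searched.

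Most members differed little between the 4 groups. The span between the highest and the lowest group mean had a median of 0.30 log2 over the 44 members, and it was under 0.5 in 34 of them (77.3%). Over all genes the median span was 0.32, with 70.8% under 0.5. Among bright genes, with a mean of at least 10, 25 of 30 members (83.3%) had a span under 0.5, against 54.6% of 2076 genes in all. The members also varied less between replicates, with a median SD within groups of 0.13, against 0.17 over all genes. This SD was not compared among bright genes alone, which were 30 of 44 members and 2076 of 18194 genes. No member reached 3-fold in any of the 4 comparisons.

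**Figure D1:**
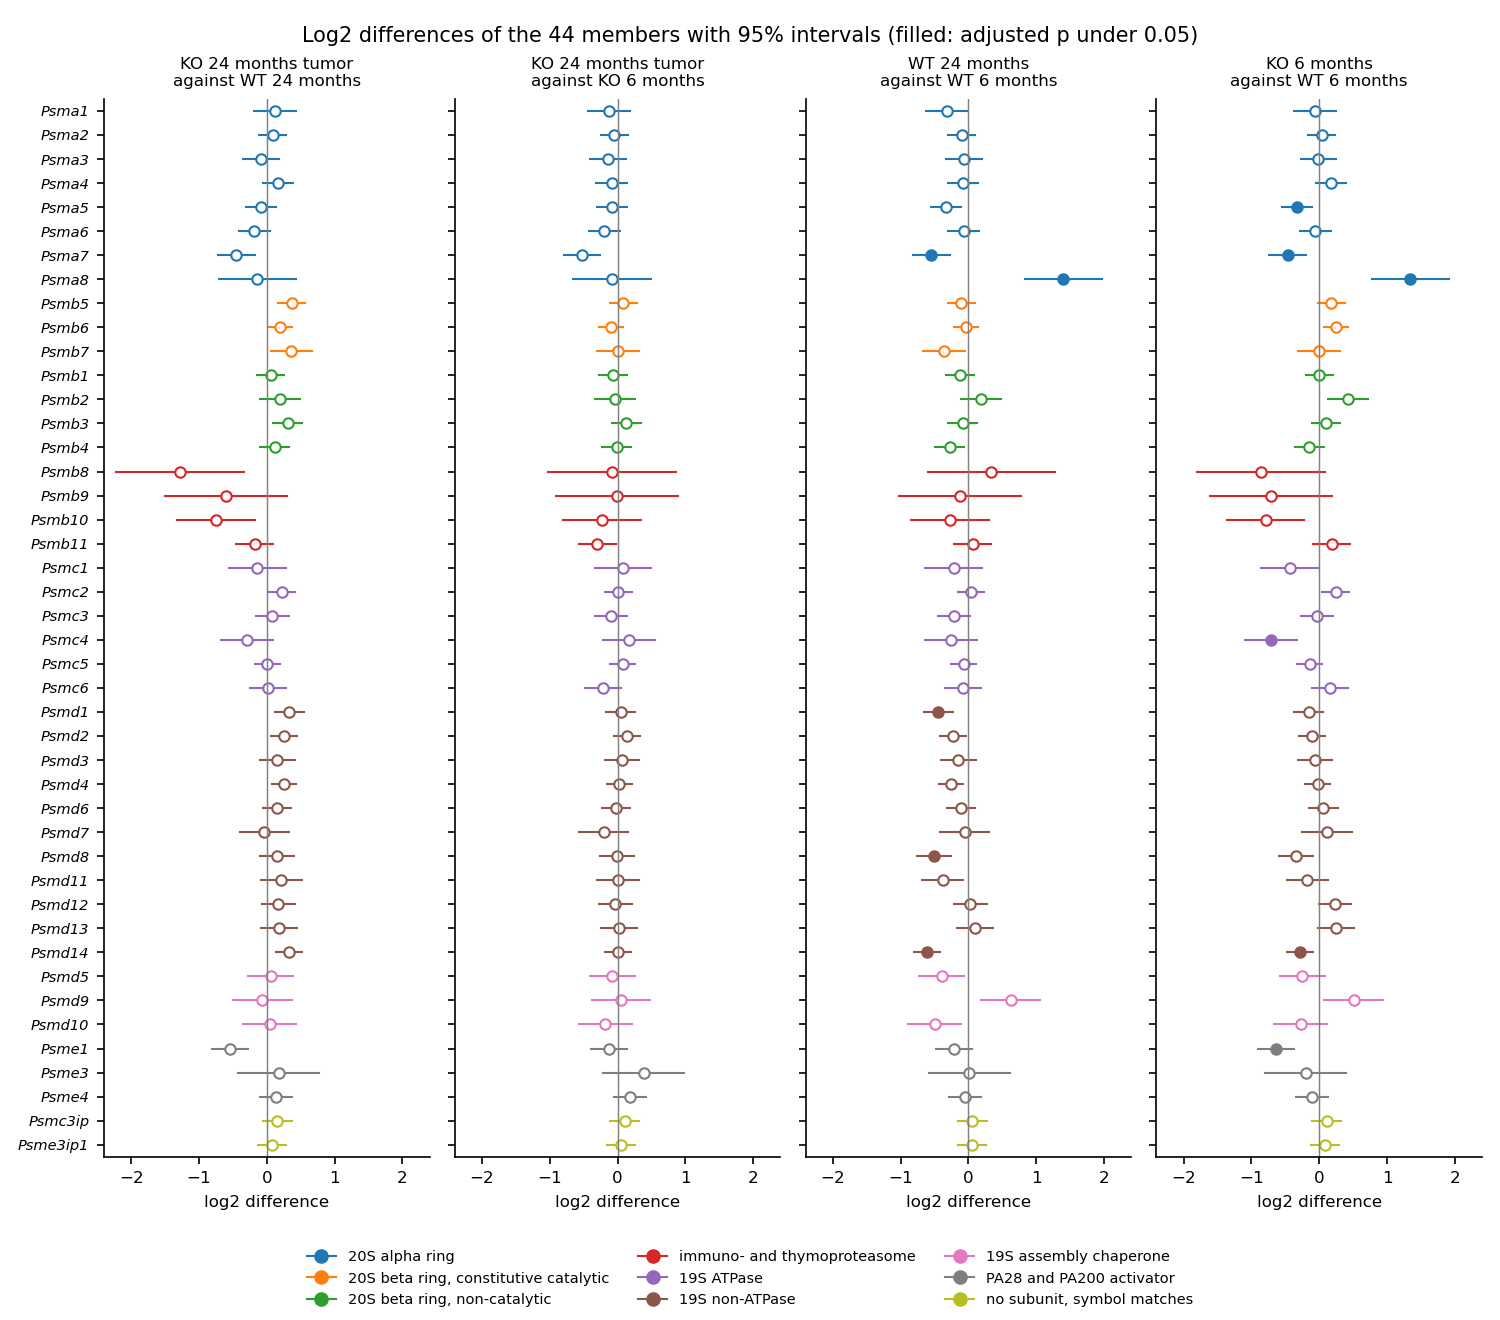
Log2 differences of the 44 members (rows, coloured by class) in the 4 comparisons (columns), with 95% intervals from limma; filled points had an adjusted p under 0.05 over all genes. Most points lie within 0.5 of 0; Psma8 is the filled point at 1.40 and 1.34 in the comparisons against WT 6 months, and Psmb8 and Psmb9 have the longest intervals.

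The immunoproteasome subunits varied widely between arrays and separated the arrays labelled KO from most of those labelled WT. Psmb8, which replaces Psmb5, read 8.66, 8.49 and 8.69 in KO 24 months tumor and 8.86, 8.72 and 8.52 in KO 6 months. It read 9.82, 8.73 and 11.13 in WT 24 months and 9.32, 9.75 and 9.60 in WT 6 months. All arrays labelled WT 6 months thus lay above all 6 arrays labelled KO, whereas the 3 arrays of WT 24 months ranged between 8.73 and 11.13, and the lowest of them lay within the values of the arrays labelled KO. Psmb9, which replaces Psmb6, read 8.19, 8.17 and 8.21 in KO 24 months tumor and 8.50, 8.03 and 8.06 in KO 6 months. It read 8.72, 7.74 and 9.92 in WT 24 months and 8.98, 8.54 and 9.22 in WT 6 months. The lowest and the highest of its 12 values were both in WT 24 months. Psmb10, which replaces Psmb7, read 9.18, 9.22 and 9.06 in KO 24 months tumor and 9.27, 9.51 and 9.38 in KO 6 months. It read 9.77, 9.27 and 10.66 in WT 24 months and 10.10, 10.31 and 10.12 in WT 6 months. Psmb10 had no overlap between KO 24 months tumor and any other group.

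In the fit of all 12 arrays as deposited, none of these differences passed the test. For KO 6 months against WT 6 months, Psmb8 differed by -0.86 log2 (SE 0.43, adjusted p = 0.207), Psmb9 by -0.72 (SE 0.41, adjusted p = 0.273) and Psmb10 by -0.79 (SE 0.26, adjusted p = 0.0591) in limma. With only these 2 groups in the fit, which leaves out the spread of the arrays labelled WT 24 months, all 3 were called, with adjusted p of 0.00633, 0.0444 and 0.00288 in limma. Psmb8 and Psmb10 were also called without WT 24 months replicate 2 (adjusted p = 0.0483 and 0.0148) and without replicate 3 (adjusted p = 0.0216 and 0.00175). With all 4 groups kept, Psmb10 was called with dim genes left out (-0.79, adjusted p = 0.0457, limma) and with the arrays centred on housekeeping genes (-0.89, adjusted p = 0.0141). Of the 4 housekeeping genes, 1 was itself called lower in KO 6 months than in WT 6 months, where 8.04% of all genes were. Between KO 24 months tumor and WT 24 months the difference was -1.28 for Psmb8 (adjusted p = 0.178), -0.60 for Psmb9 (adjusted p = 0.476) and -0.75 for Psmb10 (adjusted p = 0.189). Without WT 24 months replicate 2 the Psmb8 difference was -1.86 and was called (adjusted p = 0.0296, limma). Without WT 24 months replicate 3 the differences were -0.67 for Psmb8, -0.04 for Psmb9 and -0.37 for Psmb10, and none was called (adjusted p 0.292 to 0.968). Between KO 24 months tumor and KO 6 months the differences of Psmb8, Psmb9 and Psmb10 were -0.08, -0.01 and -0.23. Between WT 24 months and WT 6 months they were 0.34, -0.12 and -0.27. Without WT 24 months replicate 3 they were -0.28, -0.69 and -0.65, of which Psmb10 was called (adjusted p = 0.0138, limma), and without replicate 2 they were 0.92, 0.40 and 0.04, with none called. The direction of each of the 3 with age in the arrays labelled WT therefore rests on 1 array, replicate 3 of WT 24 months for Psmb8 and replicate 2 for Psmb9 and Psmb10.

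The constitutive counterparts differed less between the groups, partly in the other direction, and none of them passed the test. Psmb5, the chymotrypsin-like subunit, read 11.75, 11.72 and 11.67 in KO 24 months tumor and 11.42, 11.32 and 11.30 in WT 24 months. The 2 groups did not overlap, and the difference of 0.37 (SE 0.09, adjusted p = 0.101, limma) was the highest of all members in this comparison but did not pass the test. Psmb6, the caspase-like subunit, read 11.63, 11.64 and 11.61 in KO 24 months tumor and 11.68, 11.79 and 11.69 in KO 6 months. It read 11.46, 11.49 and 11.36 in WT 24 months and 11.51, 11.45 and 11.46 in WT 6 months. All 6 arrays labelled KO were above all 6 labelled WT, with differences of 0.19 at 24 months (adjusted p = 0.253) and 0.25 at 6 months (adjusted p = 0.0565). The latter was called with all probe sets of a gene averaged (adjusted p = 0.0326, limma). Psmb7, the trypsin-like subunit, averaged 12.46 ± 0.03 in KO 24 months tumor and 12.09 ± 0.17 in WT 24 months (SD, n = 3 each). Its difference was 0.36 there (adjusted p = 0.226) and -0.36 between WT 24 months and WT 6 months (adjusted p = 0.127). The latter was called without WT 6 months replicate 2 (-0.52, adjusted p = 0.0195, limma). Psmb11, the thymus-specific catalytic subunit, read between 4.17 and 4.84 in all 12 arrays, and its differences lay between -0.30 and 0.18.

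**Figure D2:**
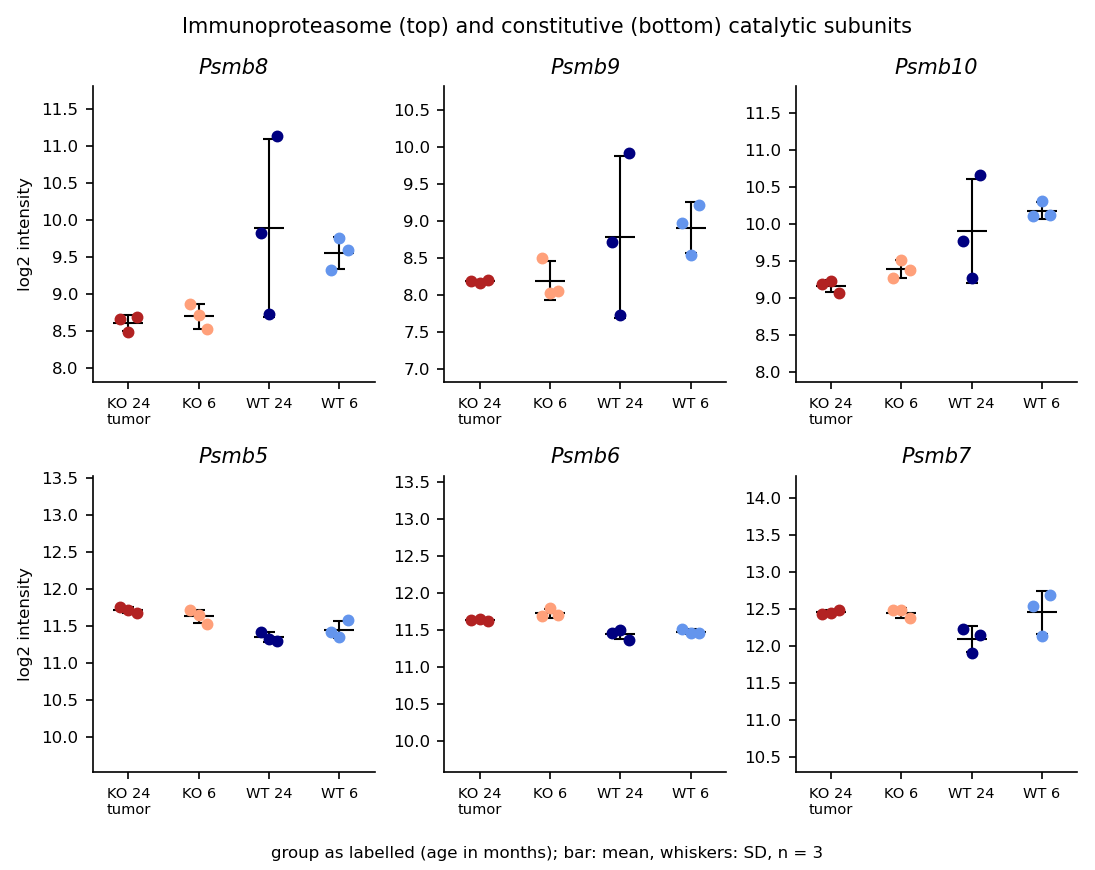
Log2 intensity of the immunoproteasome subunits Psmb8, Psmb9 and Psmb10 (top) and of the constitutive subunits Psmb5, Psmb6 and Psmb7 (bottom) in each of the 12 arrays by labelled group, with the mean and SD of the 3 arrays; every vertical axis spans 4 log2 units. The arrays labelled KO lie close together for Psmb8 (8.49 to 8.86), while those labelled WT 24 months spread between 8.73 and 11.13.

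The ratio of an immunoproteasome subunit to its constitutive counterpart was centred on its mean over the 12 arrays. It can move with either subunit. None of the constitutive counterparts was called in the fit of all 12 arrays with 1 probe set per gene. In KO 24 months tumor against WT 24 months they were higher by 0.19 to 0.37. All 3 had a p under 0.05 there without adjustment (limma), where 10.5% of all genes were higher. Between KO 6 months and WT 6 months they differed by -0.005 (Psmb7) to 0.25 (Psmb6). Psmb8 over Psmb5 lay between -0.88 and -0.64 log2 in KO 24 months tumor and between -0.67 and -0.51 in KO 6 months. It lay between -0.24 and 2.17 in WT 24 months and between 0.24 and 0.74 in WT 6 months. The 6 arrays labelled KO were thus below the 6 arrays labelled WT. Psmb10 over Psmb7 was also lower in all 6 arrays labelled KO, at -0.73 to -0.27, than in the 6 labelled WT, at 0.08 to 1.22. Psmb9 over Psmb6 overlapped, at -0.72 to -0.14 in the arrays labelled KO and -0.70 to 1.60 in those labelled WT. In WT 24 months replicate 2, Psmb8 (8.73) and Psmb10 (9.27) by themselves lay within the values of the arrays labelled KO. Psmb5 (11.32) was below all 6 arrays labelled KO there, and Psmb7 (11.90) had its lowest value of the 12 arrays.

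Psme1, the PA28 alpha subunit of the activator that interferon-gamma induces with the immunoproteasome, fell in KO 6 months against WT 6 months. It read 10.60, 10.57 and 10.56 in KO 24 months tumor and 10.75, 10.62 and 10.73 in KO 6 months. It read 11.07, 10.95 and 11.34 in WT 24 months and 11.14, 11.39 and 11.49 in WT 6 months. All arrays labelled WT lay above all those labelled KO. The difference was -0.64 between KO 6 months and WT 6 months (SE 0.12, adjusted p = 0.00408, limma) and -0.55 between KO 24 months tumor and WT 24 months (SE 0.12, adjusted p = 0.0762), where it did not pass. It was called there without WT 24 months replicate 1, at -0.57 (adjusted p = 0.0461, limma). The other activators did not pass in any comparison: Psme4, which encodes PA200, differed by -0.10 to 0.19 over the 4 comparisons. Psme3, the nuclear PA28 gamma, had the highest difference between KO 24 months tumor and KO 6 months (0.38, SE 0.27, adjusted p = 0.909), with 8.75, 8.63 and 7.39 in KO 6 months.

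Genes of antigen presentation and interferon response were counted beside the immunoproteasome. Of 16 listed genes, 0 were higher and 6 were lower in KO 6 months than in WT 6 months, where 9.00% of all genes were called higher and 8.04% lower. The median log2 difference of the 16 was -0.56, against 0.05 over all genes. The genes called lower included Tapbp (-1.27), which links the peptide transporter to class I molecules, the peptide-trimming protease Erap1 (-0.84), the ubiquitin-like modifier Ubd (-3.96) and the class I heavy chain H2-K1 (-0.45), with adjusted p between 0.00197 and 0.00886 in limma. Of the 16, 0 passed in KO 24 months tumor against WT 24 months, where 0.341% of all genes were called higher and 0.231% lower. Their median there was -0.57, against 0.04 over all genes. Between WT 24 months and WT 6 months 1 of 16 passed, Ubd (-2.93, adjusted p = 0.0332, limma), where 6.22% of all genes were called higher and 7.07% lower. The median of the 16 was -0.01. In the tumor group against KO 6 months 0 of 16 passed, where 0.0330% of all genes were called higher and 0% lower. The median of the 16 was 0.02.

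Leukocyte and endothelial markers were high with the immunoproteasome in 1 array. In WT 24 months replicate 3, which had the highest Psmb8, Psmb9 and Psmb10, 15 of 17 leukocyte markers had their highest value of the 12 arrays, and the median of their deviations from the gene mean was 2.05 log2. The common leukocyte antigen Ptprc reached 10.72 there. In the same array 6 of 8 sinusoidal endothelial markers and 12 of the 16 genes of antigen presentation and interferon response had their highest value, with median deviations of 0.79 and 0.78. In the other 11 arrays the leukocyte median lay between -0.45 and 0.08. The endothelial median lay between -1.47 and 0.62 there, with its highest value in KO 6 months replicate 3. That of antigen presentation and interferon response lay between -0.40 and 0.34. The mean of the 17 markers was 6.21 to 6.39 in KO 24 months tumor, 6.41 to 6.57 in KO 6 months, 6.45 to 8.76 in WT 24 months and 6.53 to 6.92 in WT 6 months. Between KO 6 months and WT 6 months 1 of 17 leukocyte markers was higher and 0 were lower, with a median of -0.11. Over all genes 9.00% were called higher and 8.04% lower there. The part of leukocytes or endothelium in the immunoproteasome values was not tested. In whole tissue, fewer cells of a type and less RNA per cell cannot be told apart.

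**Figure D3:**
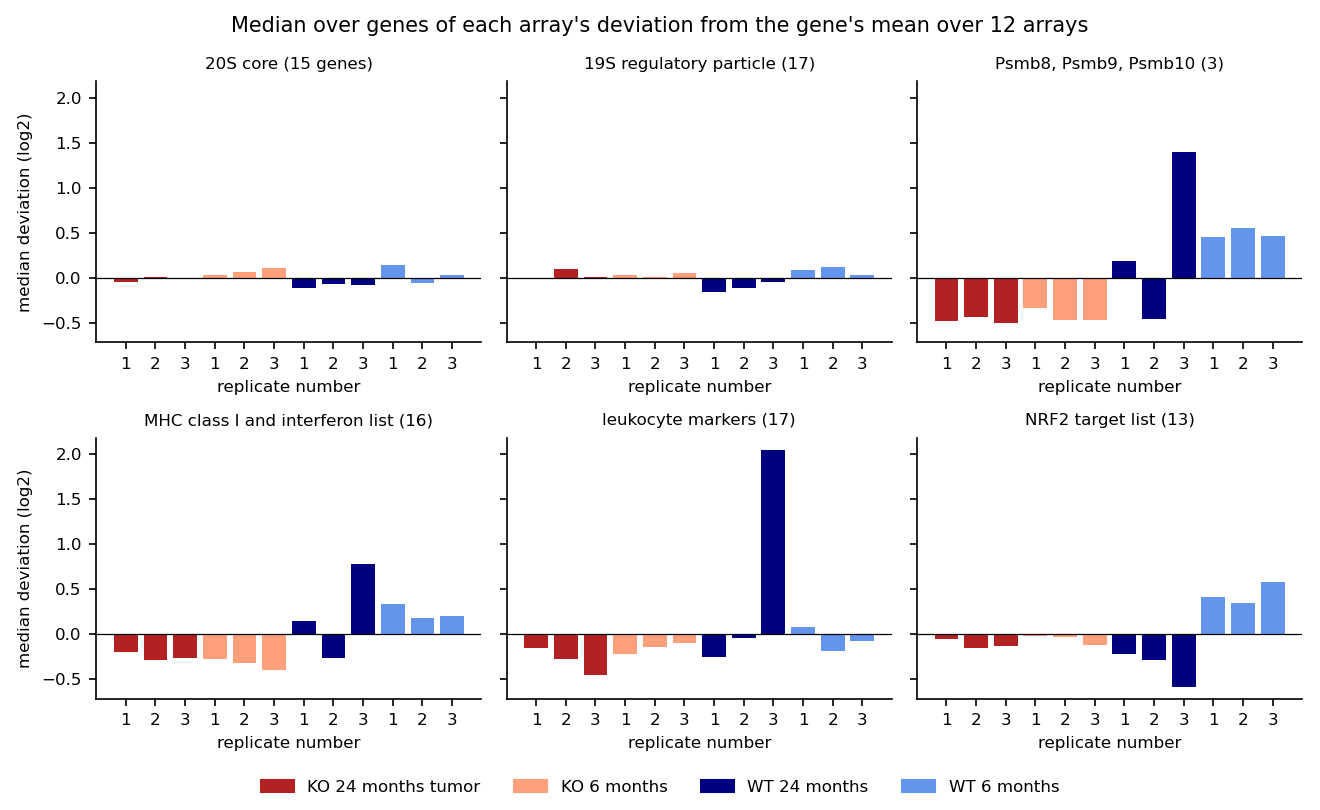
Median over the genes of a list of each array's deviation from the gene's mean over 12 arrays (log2, vertical axis) for each of the 12 arrays (horizontal axis, by replicate number, coloured by labelled group). The 20S core and the 19S particle stay between -0.15 and 0.15, while Psmb8, Psmb9 and Psmb10 and the leukocyte markers peak in WT 24 months replicate 3.

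In KO 24 months tumor against WT 24 months, 0 members were called higher and 0 lower, where 0.341% of all genes were called higher and 0.231% lower. The median difference of the members was 0.10, against 0.04 over all genes. The 17 subunits of the 19S particle had a median of 0.15, with 14 above 0, and the 15 genes of the 20S core had a median of 0.11, with 10 above 0. Without adjustment, 9 of 44 members were higher and 4 lower at p under 0.05, where 10.5% of all genes were higher and 6.67% lower. The share of all genes that was called moved with single arrays: without WT 24 months replicate 1, 436 genes were called higher and 393 lower, and without KO 24 months tumor replicate 2, 0 and 3. Against KO 6 months, KO 24 months tumor had 0 members called in either direction, where 0.0330% of all genes were called higher and 0% lower. The median of the members was -0.02, and 0 members were higher and 2 lower at p under 0.05 without adjustment, where 3.33% of all genes were higher and 2.71% lower. All 8 alpha ring genes were below 0 there, and the lowest was Psma7 at -0.53 (SE 0.12, adjusted p = 0.427, limma).

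In WT 24 months against WT 6 months, 1 of 44 members was called higher and 4 were called lower. Over all genes 6.22% were called higher and 7.07% lower. The members' median was -0.11, against 0.01 over all genes, and 33 of 44 were below 0. Of the 4 genes called lower, 3 encode non-ATPase subunits of the 19S particle. Psmd14, the deubiquitinase of the 19S lid, read 10.42, 10.25 and 10.49 in WT 24 months and 11.02, 10.98 and 10.98 in WT 6 months, a difference of -0.61 (SE 0.09, adjusted p = 0.00106, limma). Psmd1, the large scaffold of the 19S base, read 10.71, 10.74 and 10.69 in WT 24 months and 11.24, 11.14 and 11.09 in WT 6 months (-0.44, SE 0.10, adjusted p = 0.0110). The groups were apart for both genes. Psmd8, a lid subunit, read 11.19, 11.41 and 11.30 in WT 24 months and 12.00, 11.63 and 11.78 in WT 6 months (-0.50, SE 0.11, adjusted p = 0.0134), and it was not called with only these 2 groups in the fit (adjusted p = 0.0853) or without WT 6 months replicate 1 (-0.40, adjusted p = 0.0517). In the 19S non-ATPase class 3 of 11 genes fell and 0 rose. In the 19S ATPase class 0 of 6 passed, with differences between -0.26 and 0.04.

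In KO 6 months against WT 6 months, 1 of 44 members was called higher and 5 were called lower, where 9.00% of all genes were called higher and 8.04% lower. The members' median was -0.05, against 0.05 over all genes. Psmc4, a 19S ATPase, read 10.35, 10.30 and 10.13 in KO 6 months and 10.79, 11.30 and 10.81 in WT 6 months (-0.71, SE 0.18, adjusted p = 0.0176, limma). Its second probe set, at a mean of 10.09 over the arrays, differed by only -0.11, and the call was lost without WT 6 months replicate 2 (-0.54, adjusted p = 0.0676) and without KO 6 months replicate 3 (-0.64, adjusted p = 0.0690). Psma5, an alpha ring subunit, read 11.15, 11.02 and 11.06 in KO 6 months and 11.48, 11.38 and 11.35 in WT 6 months (-0.33, SE 0.10, adjusted p = 0.0474). Its second probe set, at a mean of 10.65, differed by -0.11, and the average of its probe sets was not called (-0.17, adjusted p = 0.223, limma). Psmd14 read 10.75, 10.62 and 10.75 in KO 6 months, below its values in WT 6 months (-0.29, SE 0.09, adjusted p = 0.0487). The calls of Psma5 and Psmd14 lay at the threshold, and with only these 2 groups in the fit their adjusted p was 0.0523 and 0.0724 in limma. Each was also lost when any of 10 of the 12 arrays was left out. Both comparisons share the arrays labelled WT 6 months, so a value that stands apart there enters both.

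Psma7, an alpha ring subunit, was called lower in both comparisons against WT 6 months. It read 10.57, 10.44 and 10.43 in KO 24 months tumor and 10.75, 11.06 and 11.20 in KO 6 months. It read 10.85, 11.05 and 10.89 in WT 24 months and 11.37, 11.48 and 11.57 in WT 6 months. It was thus highest in WT 6 months and lowest in KO 24 months tumor, and neither range overlapped another group's. The difference was -0.54 between WT 24 months and WT 6 months (SE 0.12, adjusted p = 0.0127, limma) and -0.47 between KO 6 months and WT 6 months (SE 0.12, adjusted p = 0.0229). Its second probe set differed by -0.38 and -0.17. The call in KO 6 months was lost with only these 2 groups in the fit (adjusted p = 0.0526, limma) and without KO 6 months replicate 1 or 2 or WT 6 months replicate 2 or 3 (adjusted p 0.0509 to 0.0782).

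Psma8, an alpha subunit of the testis proteasome, was the only member called higher in these comparisons. It read 5.26, 5.74 and 5.02 in KO 24 months tumor, 5.86, 5.13 and 5.27 in KO 6 months and 4.96, 5.59 and 5.89 in WT 24 months. In WT 6 months it read 4.03, 4.0 and 4.21, below all 9 other arrays. The difference was 1.40 between WT 24 months and WT 6 months (SE 0.26, adjusted p = 0.00435, limma) and 1.34 between KO 6 months and WT 6 months (SE 0.26, adjusted p = 0.00468). The gene had 1 probe set, and its values were near the array medians of 5.41 to 5.45 or below them.

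**Figure D4:**
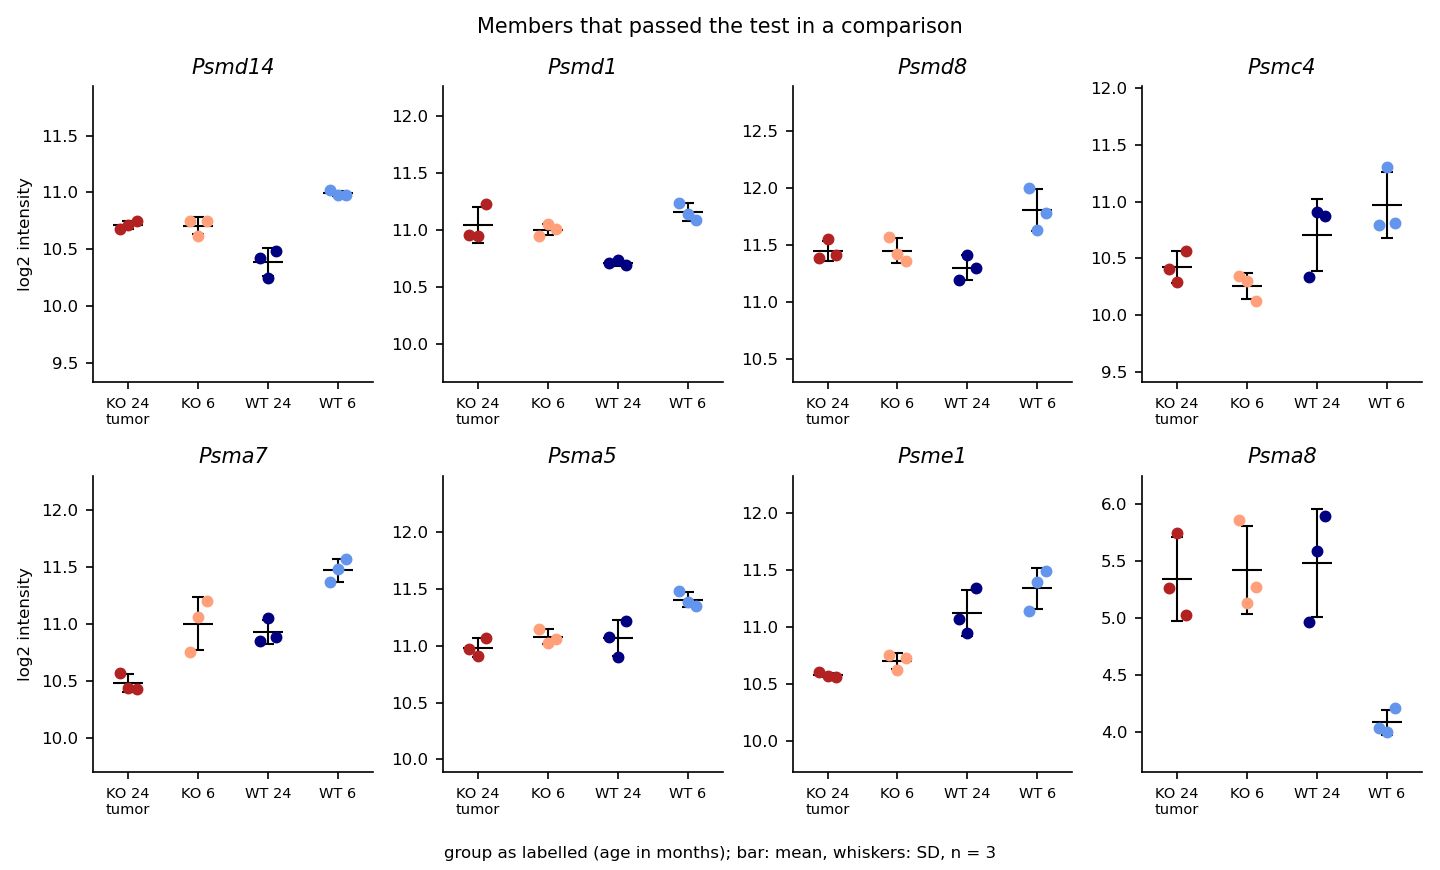
Log2 intensity of the 8 members that passed the test in at least 1 comparison, in each of the 12 arrays by labelled group, with the mean and SD of the 3 arrays; every vertical axis spans 2.6 log2 units. The arrays labelled WT 6 months hold the highest mean for Psmd14, Psmd1, Psmd8, Psmc4, Psma7, Psma5 and Psme1 and the lowest for Psma8.

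The interaction, the change with age in the arrays labelled KO minus that in those labelled WT, was called for 1 of 44 members in each direction. Over all genes 2.59% were called higher and 2.24% lower. Psmd14 had an interaction of 0.61 (SE 0.13, adjusted p = 0.0177, limma): KO 24 months tumor and KO 6 months both averaged 10.71, whereas WT 24 months averaged 10.38 and WT 6 months 10.99. Psma8 had an interaction of -1.48 (SE 0.37, adjusted p = 0.0422). In the 19S non-ATPase class 1 of 11 genes passed, and the median was 0.28, against 0.00 over all genes. The immunoproteasome subunits had interactions of -0.42 for Psmb8 (SE 0.61), 0.11 for Psmb9 (SE 0.58) and 0.04 for Psmb10 (SE 0.37), and their 95% intervals all included 0.

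The assembly chaperones of the 19S base gave no call in the fit of all 12 arrays. Psmd9 (p27) read 8.82, 8.51 and 8.68 in WT 6 months, below all 9 other arrays, with differences of 0.62 in WT 24 months (SE 0.20, adjusted p = 0.0606, limma) and 0.51 in KO 6 months (SE 0.20, adjusted p = 0.105) against it. Its second probe set differed by 0.57 and 0.44. The difference of Psmd9 in WT 24 months was called with dim genes left out and without WT 24 months replicate 1 or 3, and that in KO 6 months without WT 24 months replicate 2. Psmd10 (gankyrin, an oncoprotein of liver cancer) differed by -0.50 in WT 24 months and -0.27 in KO 6 months against WT 6 months. The difference of Psmd10 in WT 24 months was called with the arrays centred on housekeeping genes and without WT 6 months replicate 3 or WT 24 months replicate 3. Psmd5 differed by -0.39 and -0.25, and the first was called without WT 6 months replicate 2. Of the non-catalytic beta subunits Psmb1 to Psmb4 none was called in the fit of all 12 arrays with 1 probe set for each of the 18194 genes. Psmb2 was nearest, at 0.42 between KO 6 months and WT 6 months (SE 0.13, adjusted p = 0.0534). This difference was called with dim genes left out and with all probe sets of a gene averaged. It was also called without KO 6 months replicate 2, KO 24 months tumor replicate 3 or WT 6 months replicate 1. Psmc3ip and Psme3ip1 differed by 0.05 to 0.16 in the 4 comparisons, and 0 of 2 were called.

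Other genes of the pathway were counted from lists. Over all genes 9.00% were called higher and 8.04% lower in KO 6 months than in WT 6 months. In WT 24 months against WT 6 months these shares were 6.22% and 7.07%. Of 6 further assembly factors, Psmg3, an alpha ring chaperone (0.63), and Akirin2, a nuclear import factor for proteasomes (0.45), were higher in KO 6 months than in WT 6 months, and 0 were lower. Psmg4 was lower in WT 24 months than in WT 6 months (-0.38, adjusted p = 0.0316, limma). Of 9 proteasome-bound proteins, the ubiquitin ligase Ube3c (0.34) and the adaptor Ecpas (0.36) were higher in KO 6 months than in WT 6 months, and none passed in the other 3 comparisons. Of 7 ubiquitin and shuttle genes, Ubqln2 was lower in WT 24 months (-1.06) and in KO 6 months (-1.29) than in WT 6 months, and Rad23b was higher in KO 6 months (0.54). Both encode shuttles of ubiquitinated proteins.

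Of the transcription factors known to induce proteasome genes, Nfe2l1 passed in no comparison, with a difference of 0.38 between KO 24 months tumor and WT 24 months (adjusted p = 0.279, limma). Nfe2l2 was lower in WT 24 months (-0.92, adjusted p = 0.00107, limma) and in KO 6 months (-0.70, adjusted p = 0.00468) than in WT 6 months. Of 13 NRF2 target genes outside the proteasome, 9 were lower and 0 higher in WT 24 months than in WT 6 months (median -0.79), and 5 were lower and 0 higher in KO 6 months (median -0.52). Over all genes 7.07% and 8.04% were called lower and 6.22% and 9.00% higher in these 2 comparisons. The detoxifying enzymes Gstm3 (-2.30 and -2.25) and Nqo1 (-2.42 and -2.91) and the sulfiredoxin Srxn1 (-2.29 and -2.46) were among the lower targets in both. Psmb5 and Psmb6, which carry the antioxidant response core in the windows shown, differed by -0.11 and -0.04 in WT 24 months and by 0.18 and 0.25 in KO 6 months against WT 6 months. The other members with this core, Psmc6, Psmd9, Psmd12 and Psme4, differed by -0.08, 0.62, 0.03 and -0.05 in WT 24 months. In KO 6 months they differed by 0.16, 0.51, 0.23 and -0.10 against WT 6 months. Sinusoidal endothelial markers also set the arrays labelled WT 6 months apart: 7 of 8 were higher in WT 24 months and 6 of 8 in KO 6 months. The shares called higher over all genes were 6.22% and 9.00%. The mean of these markers was 7.95 to 8.07 in KO 24 months tumor, 8.05 to 8.27 in KO 6 months, 7.44 to 8.89 in WT 24 months and 6.22 to 7.03 in WT 6 months. The part of this in the members' differences was not tested.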

How the data were processed

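Liver RNA of 12 mice was hybridized to 12 arrays, 1 per animal. The authors deposited log2 values made by RMA (background correction, quantile normalization and summary per probe set) for 45101 probe sets. Of these, 34958 name 1 gene in the annotation supplied, 932 name several and 9211 name none listed. The gene's brightest probe set (highest mean over 12 arrays) was used. Members had 91 probe sets, and 1 further probe set, shared by Psme2 and Psme2b, was left out.

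Groups were taken from the labels. The 4 comparisons of the study and their interaction were fitted on all 12 arrays (R 4.3.3, limma 3.58.1), with Benjamini-Hochberg adjustment over 18194 genes and a call at an adjusted p under 0.05. The package for SAM, the test of the study, was not used here. P-values measure the spread between arrays labelled as biological replicates, and the number of arrays limits the precision. Promoter windows came from RefSeq, and figures were drawn with matplotlib 3.10.9.

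The members and lists were chosen with earlier results of these data known. Named are all catalytic subunits and up to 4 called members of each class and comparison (all where 5 or fewer were called). The lowest and highest member of each comparison are named too. Outside the cell type markers, at most 4 genes per list are named, those of smallest adjusted p. All 8 hepatocyte markers are named. Psmb2, Psmd5, Psmd9, Psmd10, Psme4, Nfe2l1, Ptprc and Cps1 were named after their values were seen. Alternatives were the fit of only 2 groups, a replicate block, averaging all probe sets of a gene, removal of genes under a mean of 6, a trended and robust variance prior, centring on the array median or on housekeeping genes, the 3-fold threshold of the methods, and leaving out each array.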

Additional observations from a re-analysis of the deposited data

Results flagged for a closer look

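In 2 members the change with age differed between the arrays labelled KO and those labelled WT by the interaction term of limma. Psmd14, the deubiquitinase of the 19S lid, had an interaction of 0.61 (SE 0.13, adjusted p = 0.0177): its change with age was 0.00 in the arrays labelled KO and -0.61 in those labelled WT. Psma8, the testis alpha subunit, had an interaction of -1.48 (SE 0.37, adjusted p = 0.0422): its change with age was -0.08 in the arrays labelled KO and 1.40 in those labelled WT. Each interaction rests on arrays whose labels Iqgap2 goes against, and it keeps its value and sign if the labels KO 24 months tumor and WT 6 months are exchanged. The 2 changes with age within it would not be kept. They would then come from KO 6 months against WT 6 months and KO 24 months tumor against WT 24 months, as labelled, read in reverse. As labelled, these differences were -0.29 and 0.33 for Psmd14 and 1.34 and -0.14 for Psma8. That of Psma8 was not called with the replicate block (adjusted p = 0.0773) or when any of 10 of the 12 arrays was left out (adjusted p 0.0525 to 0.107), and that of Psmd14 was not called without KO 6 months replicate 2 (0.57, adjusted p = 0.0521) or with the arrays centred on housekeeping genes (0.73, adjusted p = 0.0851).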

How the results depend on the processing

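No called difference of a named member turned its direction under any alternative run. Alternatives were not run for single genes of the other lists. In KO 24 months tumor against WT 24 months and against KO 6 months, 0 members were called under every setting that kept all arrays. With the 3-fold threshold added, 0 members were called in every pair of groups. With the replicate block, a term for the replicate number, 3 members were lower in KO 6 months than in WT 6 months in place of 5, and 0 in place of 1 had a negative interaction. It changed no other count. The numbers did not pair the arrays: same-numbered arrays of different groups correlated at -0.157 to 0.185 in their deviations from group means, and 5 of 12 arrays correlated best with their own number. The trended and robust prior also gave 3 lower members in KO 6 months against WT 6 months. With all probe sets of a gene averaged, 3 members were higher in that comparison (Psma8, Psmb2 and Psmb6), and 2 had a positive interaction (Psmd14 and Psmd1). Without dim genes, which leaves out Psma8, 0 had a negative interaction.

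Centring on housekeeping genes moved the median of all genes to -0.13 between WT 24 months and WT 6 months and to 0.11 for the interaction. It gave 3 lower members in KO 6 months against WT 6 months and 0 with a positive interaction. The share of called genes that were higher was 29.2% against 46.8% without it (WT 24 months against WT 6 months), 33.1% against 52.8% (KO 6 months against WT 6 months) and 32.1% against 59.6% (KO 24 months tumor against WT 24 months). For KO 24 months tumor against KO 6 months it was 76.9% against 100%. The 4 housekeeping genes themselves differed between groups. Of them 2 were called higher and 1 lower in WT 24 months than in WT 6 months, where 6.22% and 7.07% of all genes were. Their differences ran from -0.56 (Hprt) to 1.02 (Gusb). In KO 6 months against WT 6 months 0 were higher and 1 lower (-0.48 for Hprt to 0.78 for Gusb), against 9.00% and 8.04% of all genes. With only the 2 groups in the fit, 408 genes were higher and 515 lower in WT 24 months against WT 6 months, in place of 1132 and 1286. In KO 24 months tumor against WT 24 months 1 was higher and 4 lower in place of 62 and 42, and against KO 6 months 35 were higher and 45 lower in place of 6 and 0.

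Leaving out 1 array at a time gave 0 to 1 lower members in KO 24 months tumor against WT 24 months (1 without WT 24 months replicate 1 or 2). It gave 1 to 2 higher and 3 to 7 lower in WT 24 months against WT 6 months (7 without WT 24 months replicate 3), and 1 to 2 higher and 2 to 7 lower in KO 6 months against WT 6 months. For the interaction it gave 0 to 1 in each direction.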

Other observations

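The probe set that names both Psme2, the PA28 beta subunit, and its copy Psme2b cannot be given to 1 gene and was in no comparison. It read 10.63, 10.42 and 10.42 in KO 24 months tumor, 10.75, 10.93 and 10.84 in KO 6 months, 11.02, 10.47 and 11.26 in WT 24 months and 11.06, 11.19 and 11.24 in WT 6 months. The arrays labelled WT 6 months were above all 6 labelled KO, as they were for Psme1. Further probe sets of members with a mean of at least 8 numbered 16 and belong to 13 genes. Of these 16, 14 had the sign of the probe set used in WT 24 months against WT 6 months. In KO 6 months against WT 6 months 11 had it. In KO 24 months tumor 10 had it against WT 24 months and 10 against KO 6 months.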
